A study of Caenorhabditis elegans with 2 samples.

Results

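LIN-35 ChIP-seq of young adult Caenorhabditis elegans gave 338 peaks that sit at the start of a single protein-coding gene. They were chosen by position alone. Each is a nuclear peak of the authors' thresholded list whose summit has exactly 1 protein-coding 5' end within 500 bp, and that 5' end is at most 150 bp from the summit on either side. The 338 peaks are 12.6% of the 2683 nuclear peaks, in a list of 2712 that also holds 29 mitochondrial peaks. They lie at 337 genes, because kin-14 has 2 summits, with signals of 136 at 134 bp downstream and 58.4 at 72 bp upstream. They are called single-gene proximal peaks here. They are set beside 643 single-gene peaks whose 5' end is over 150 and up to 500 bp away, called distant peaks, beside 338 peaks between a pair of divergent coding 5' ends, and beside all 2683 nuclear peaks.

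The series has 1 group of 2 samples, labelled biological replicates 1 and 2, from whole young adults of both sexes whose exact age is given as unknown. The strain is YL521, with the unc-119(ed3) mutation on chromosome III and the integrated transgene vrIs117. That transgene expresses LIN-35 with GFP and FLAG at its C-terminus from the pie-1 promoter with the puf-5 3' UTR, both germline regulatory sequences, and carries unc-119(+) to rescue the mutation. The antibody is labelled lin-35, and the labels do not say how the recovered protein divides between tagged and endogenous LIN-35. The animals were not dissected, so no peak can be assigned to a tissue. No control sample was analysed here and the read numbers are unknown, so the depth behind the peaks is unknown. The signal of a peak is the authors' own value on a scale they do not state. It was used only to rank peaks within a list, and values of the replicate lists are given side by side without a ratio between them.

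LIN-35 is the worm's only retinoblastoma-type pocket protein. It is a core part of DREAM, a complex that reaches DNA through the E2F-DP pair EFL-1 and DPL-1, which reads an E2F site, and through LIN-54, which reads a short AT-rich element known as CHR. DREAM is known for repressing cell cycle genes, and in worms also for keeping germline genes silent in the soma. Where transcription starts is not always where an annotated worm gene begins. Many worm pre-mRNAs lose their first stretch when a short spliced leader is joined at an AG acceptor, and the annotation then starts just after that AG.

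Most of the strongest proximal peaks had E2F or CHR letters within 100 bp of the summit. A CHR element was also found in 54.7% of windows of the same width at all coding 5' ends. The following sequences are the E2F words nearest to the summit in the 8 strongest proximal peaks on chromosomes II to V that hold such a word. They show the DNA that the motif counts below rest on. The words of szy-20, C34C12.8 and his-37 lie 93, 87 and 78 bp from the summit. Sequences are from the RefSeq WBcel235 genome (ce11) and run 5' to 3' on the strand of the gene. Capitals mark the word, which reads GCGCCAA where TTGGCGC lies on the other strand.
tasp-1, chrIII:10759265-10759293, plus strand: tgtgacacagcGCGCCAActtgaaaatgg
fbxl-2, chrIII:4757149-4757177, plus strand: catcggaaaatGCGCCAAgcactggctgg
ufd-3, chrII:9940589-9940617, plus strand: taaattttgaaTTCCCGCaaatttgccta
szy-20, chrII:8969354-8969382, minus strand: caccactcattTTGCCGCccgttctcttt
rpn-11, chrII:4044594-4044622, minus strand: aaaataaactgTTCCCGCcgttttcttta
C34C12.8, chrIII:3460183-3460211, plus strand: tccactttaaaTTGCCGCttaaaaactcc
his-37, chrV:9546919-9546947, plus strand: ctgcacaacctTTCCCGCgtcatcgaatc
ntl-11, chrIV:15471617-15471645, minus strand: aatcacaaagtGCGCCAAcgatctctgcg

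The 4 strongest proximal peaks on chromosomes II to V that have a CHR element and no E2F word are shown for contrast. Capitals mark the CHR element nearest to the summit, and TTCAAA is TTTGAA read on the other strand.
Y39B6A.43, chrV:18967778-18967805, minus strand: ttcggcgcgagTTCAAAtatggaaccac
pafo-1, chrV:11521662-11521689, plus strand: gtgtgtgagagTTTGAAtttaattccct
rpb-11, chrII:14059993-14060020, plus strand: tatctttgattTTCGAAgtttgaattat
C27F2.9, chrIII:4963115-4963142, minus strand: aaatccgcgctTTTGAAagaagcggctg

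In some proximal peaks both words lay side by side, with the CHR element on the 5' side of the E2F word. The 4 peaks below have 0 to 2 bases between the words, and were chosen after their spacing was seen. Both words are in capitals, and the letters run along the strand on which the E2F word was found.
ufd-3, chrII:9940586-9940614, plus strand: tgttaaatTTTGAATTCCCGCaaatttgc
snpc-3.4, chrIII:4019954-4019982, plus strand: cctaaaaTTCAAAatTTGCCGCccaacaa
sna-2, chrIV:9777758-9777785, minus strand: gttctatTTCGAAaTTCGCGCcgttgca
lin-5, chrII:7860480-7860508, plus strand: aattgtcaTTTGAATTCCCGCtgttttta

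In 4 others, also chosen after their spacing was seen, 9 bases separated the words.
rpn-11, chrII:4044602-4044629, minus strand: ttaTTTGAAaataaactgTTCCCGCcgt
mes-2, chrII:14383805-14383832, plus strand: agaTTCAAAttccaaaccTTCGCGCcaa
H14E04.2, chrIII:2376091-2376118, minus strand: tagTTTGAAaatgagacgTTGGCGCcaa
pqn-80, chrIII:12626394-12626421, plus strand: acgTTCAAAtccaaaactTTCCCGCcgt

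The last set shows annotated 5' ends, with 20 bases before the end and the first 10 of the gene, since the kind of 5' end varied with the distance of the summit. The first 4 belong to the strongest peaks on chromosomes II to V, with the first 3 bases of the gene in capitals.
tasp-1, chrIII:10759287-10759316, plus strand: aaaatggccgagagagtgtcTCGtgctcag
Y39B6A.43, chrV:18967820-18967849, minus strand: aagtgacgcaaaagtggacgAAAcacgctt
fbxl-2, chrIII:4757240-4757269, plus strand: tttcattttgtgttgcagcgGGAggcattc
pafo-1, chrV:11521683-11521712, plus strand: attccctcggtgactagtttTTTcgatttg
The next 3 were chosen because TTTCAG, the letters typical of a worm splice acceptor, end at the annotated start. Here TTTCAG is in capitals.
rpb-11, chrII:14060065-14060094, plus strand: tcaattttctaaatTTTCAGcaaaaatgaa
cyn-1, chrV:14356056-14356085, plus strand: agttttgtttctttTTTCAGgtaaaatgaa
C34C12.8, chrIII:3460386-3460415, plus strand: tcaaattttggcaaTTTCAGacaatatgct

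The strongest proximal peak lay at tasp-1, a taspase-type threonine protease gene (WBGene00010480), at chrIII:10759044-10759425. Its signal was 1679 in the thresholded list, 647 in replicate 1 and 1033 in replicate 2, and the peak ranked sixth and seventh in the replicate lists. All 3 summits lay upstream, at 59, 63 and 54 bp from the 5' end. Y39B6A.43 followed with 805 in the thresholded list, 318 in replicate 1 and 499 in replicate 2 (chrV:18967666-18967992, summit 24 bp upstream). The alpha-tubulin gene tba-2 had 709, 268 and 443 in the same 3 lists (chrI:12966776-12967122, summit 137 bp upstream). These 3 peaks were among the 31 strongest of both replicates. The F-box gene fbxl-2 had 604, 217 and 380 (chrIII:4757048-4757316, 72 bp upstream).

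The next strongest included genes of several kinds, which are grouped here only for reading. The PAF1 complex gene pafo-1 had 529 in the thresholded list, 210 in replicate 1 and 322 in replicate 2, with the summit 65 bp upstream (chrV:11521480-11521769). The RNA polymerase II subunit gene rpb-11 had 508, 173 and 324, with the summit 110 bp upstream (chrII:14059854-14060121). The splicing factor gene smu-1 had 424, 169 and 270, and its replicate 1 summit fell on the other side of the 5' end. The Integrator subunit gene ints-4 had 407, 98.2 and 290, and its summit lay 33 bp downstream, in the 5' UTR. It was the only downstream summit among the 20 strongest proximal peaks with a summit in both replicate lists. The cap methyltransferase gene cmtr-1 had 311, 82.9 and 244.

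Several others of those 20 encode proteins of translation, protein folding or the mitochondrion. The ribosomal protein gene rpl-24.2 had 481 in the thresholded list, 217 in replicate 1 and 268 in replicate 2, from a summit in an intron 139 bp upstream. The prefoldin gene pfd-6 had 392, 163 and 223. The eIF5A gene iff-2 had 377, 132 and 260, and was the only peak among those 20 with neither motif. The ubiquitin pathway gene ufd-3, a cofactor of the CDC-48 ATPase, had 350, 153 and 188, and the cyclophilin gene cyn-1 had 323, 115 and 178. The proteasome deubiquitinase gene rpn-11 had 312, 135 and 176. The ADP/ATP carrier gene ant-1.1 had 327, 146 and 187, and the cytochrome oxidase gene cox-5B had 323, 101 and 233. The remaining names were szy-20, a centrosome size regulator that had 335, 126 and 221, and C27F2.9 and tag-281, with 502 and 352 in the thresholded list. Every one of the 20 peaks was among the strongest 2712 of both replicates.

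The signal of all 338 proximal peaks ran from 42.0 to 1679, with a median of 75.2 and quartiles of 56.2 and 134. The median was 78.6 for distant peaks, 94.9 for divergent peaks and 68.2 for all nuclear peaks. Nuclear peaks were divided by signal into 4 equal groups. The strongest group held 111 of the proximal peaks (32.8%, 95% Wilson interval 28.1 to 38.0) and the weakest held 59 (17.5%, 13.8 to 21.9). They made up 4 of the 20, 18 of the 100 and 89 of the 500 strongest nuclear peaks. Wilson intervals here and below cover counting error over peaks or genes, which are not replicates. Differences between kinds of peak were not tested, and the values in both replicate lists show their spread over the 2 libraries.

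Proximal summits lay mostly upstream, and became sparser towards the gene. Of the 338, 276 lay upstream of the 5' end (81.7%, interval 77.2 to 85.4), against 85.5% of distant peaks, 92.6% of divergent peaks and 86.5% of the 1354 nuclear peaks within 500 bp of any coding 5' end. In steps of 25 bp from 150 bp upstream to the 5' end, the counts were 77, 62, 36, 41, 33 and 27. Past the 5' end they were 15, 8, 8, 9, 11 and 11. The median distance without sign was 96 bp, and the peak interval itself covered the 5' end in 237 of the 338 (70.1%). In the replicate lists, each taken alone and limited to its strongest 2712 peaks, the upstream share was 75.5% and 79.0% for proximal peaks and 79.6% and 85.0% for distant peaks. The proximal share was the lower of the pair in each of the 3 lists, of which the thresholded list was made from both replicates.

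**Figure D1:**
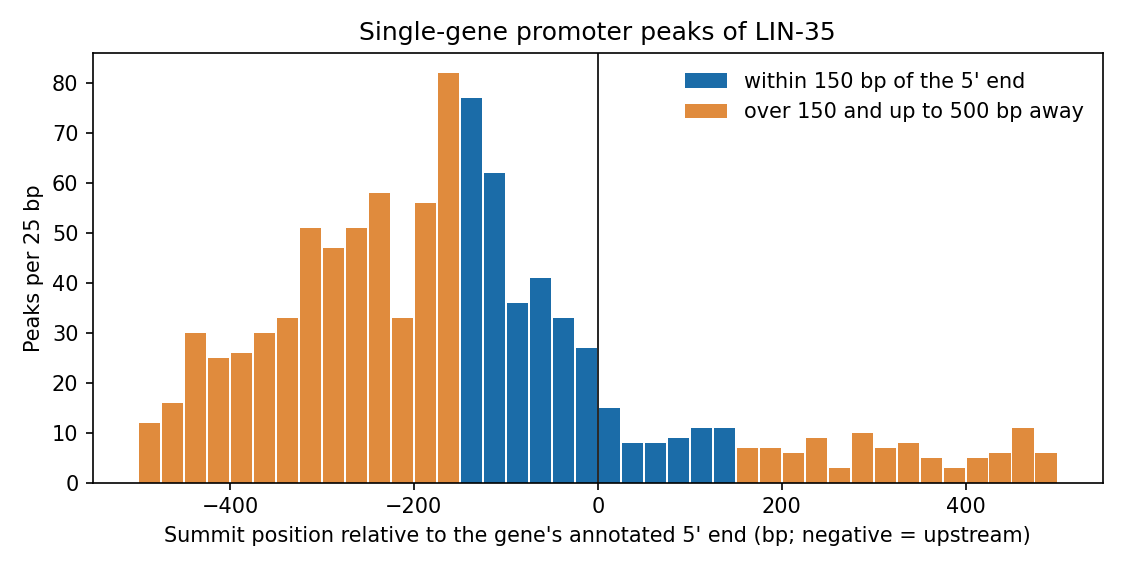
Number of single-gene peaks per 25 bp (vertical axis) by the position of the summit relative to the annotated 5' end of the gene in bp (horizontal axis, negative is upstream); blue bars are the 338 proximal peaks and orange bars the 643 distant peaks. The counts climb from 27 just before the 5' end to 77 at the upstream limit of the proximal peaks, and stay at 15 or fewer on the downstream side.

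The upstream limit of 150 bp falls on the top of this profile, with 77 peaks in the step just inside it and 82 distant peaks in the step just outside. Just inside it, at 150 bp upstream, lay Y59C2A.2 (signal 97.5), the mitochondrial seryl-tRNA synthetase gene sars-2 (89.0) and the LEM-domain nuclear envelope gene lem-2 (76.6). Just outside lay pop-1, a TCF-type transcription factor gene (50.7, 151 bp), the translation elongation factor gene eef-1B.2 (159, 152 bp) and the F-box gene fbxb-72 (117, 152 bp). The summits nearest to a 5' end were those of the mitochondrial ribosomal protein genes mrps-26 (1 bp upstream, signal 42.3) and mrpl-47 (3 bp downstream, 285), and of the RNA-binding protein gene rbm-39 (4 bp upstream, 116). At mrps-26 the replicate signals were only 2.81 and 14.3.

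Downstream proximal peaks were weaker than upstream ones. The median signal was 59.7 for the 62 downstream peaks and 80.9 for the 276 upstream peaks. Of the downstream peaks, 26 (41.9%, interval 30.5 to 54.3) were among the strongest 2712 of both replicates, against 157 of the upstream peaks (56.9%, 51.0 to 62.6). An E2F word lay within 100 bp of the summit in 7 downstream peaks (11.3%, 5.58 to 21.5) and in 78 upstream peaks (28.3%, 23.3 to 33.8). By annotation, 36 downstream summits fell in a 5' UTR, 16 in a coding exon and 8 in an intron, whereas 255 upstream summits were intergenic (92.4%). Over all proximal peaks, 75.4% of summits were intergenic, 10.9% in a 5' UTR, 6.21% in an intron and 2.37% in a noncoding exon. For all nuclear peaks these shares were 60.4%, 3.17%, 17.6% and 9.99%. The rule on position favours intergenic and 5' UTR summits, so these shares are a description.

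Few proximal summits had a noncoding gene nearby. A noncoding 5' end lay within 500 bp in 32 proximal peaks (9.47%, interval 6.79 to 13.1), against 18.5% of distant peaks and 24.9% of all nuclear peaks. Divergent peaks had one in 16.3%. For tRNA genes the count was 4 (1.18%), against 4.51% of distant peaks, 0.296% of divergent peaks and 7.04% of all nuclear peaks. Proximal peaks were narrower than the commonest width of 296 bp in 52.7% of cases, against 49.6% of distant peaks, 65.7% of divergent peaks and 41.3% of all nuclear peaks. Their median width was 263 bp, between those of divergent peaks (212 bp) and distant peaks (296 bp).

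The kind of annotated 5' end varied with the distance of the summit. Only 4 of the 60 genes with a summit 0 to 50 bp upstream had AG directly before the 5' end (6.67%, interval 2.62 to 15.9). The count was 8 of 77 at 50 to 100 bp (10.4%, 5.36 to 19.2) and 67 of 139 at 100 to 150 bp (48.2%, 40.1 to 56.4). In distant peaks it was 68.1% at 150 to 200 bp, 60.4% at 200 to 250 bp and 70.4% at 250 to 300 bp. The acceptor letters TTTCAG within 10 bases before the 5' end followed the same order, with 1.67%, 3.90% and 20.9% in the 3 proximal steps and 41.3% at 150 to 200 bp. The annotated span from the 5' end to the first coding base, introns included, had a median of 102 bp, 52 bp and 8 bp in the proximal steps. It was 10 bp at 150 to 200 bp. Summits close to a 5' end lay mostly at ends without AG, such as that of tasp-1 shown above. Many ends with an acceptor, such as those of rpb-11 and cyn-1, had summits over 100 bp away. Of the 40 proximal genes with TTTCAG, 29 were in the step from 100 to 150 bp upstream.

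**Figure D2:**
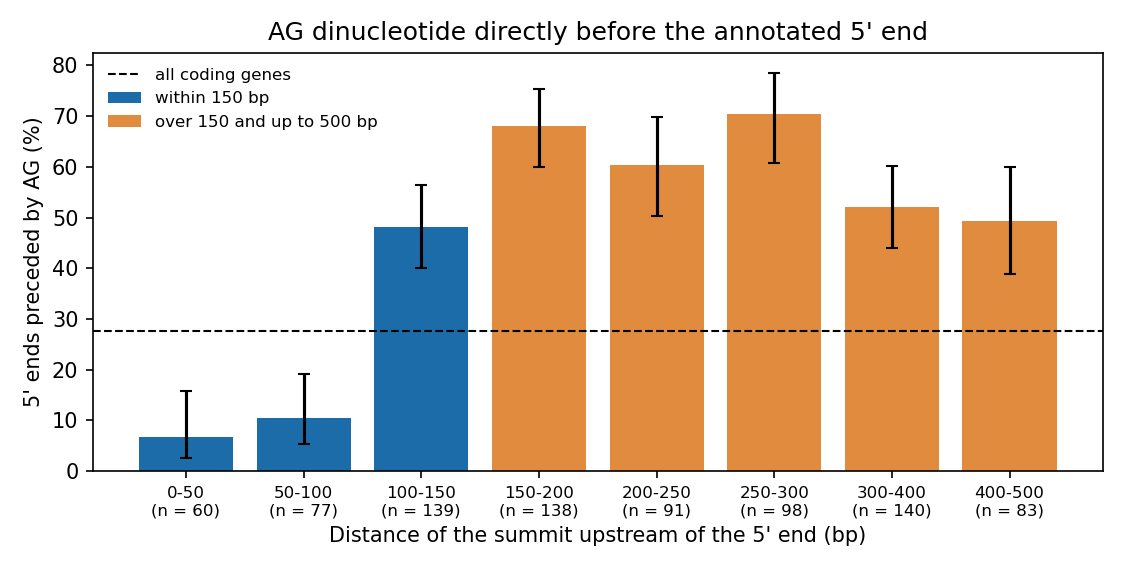
Share of annotated 5' ends with AG directly before them in percent (vertical axis) by the distance of an upstream summit in bp (horizontal axis, number of peaks under each step); blue bars are proximal and orange bars distant peaks, error bars are 95% Wilson intervals for counting error, and the dashed line is the share of all 19973 coding genes, 27.6%. The first 2 steps, at 6.67% and 10.4%, lie below the line, and the third proximal step and all distant steps lie above it.

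Taken over whole groups, 95 of the 337 proximal genes had AG before the 5' end (28.2%, interval 23.7 to 33.2), against 357 of the 634 genes at distant peaks (56.3%, 52.4 to 60.1) and 27.6% of all coding genes. TTTCAG stood before 11.9% of proximal genes, 33.6% of distant genes and 13.3% of all coding genes. The median span from the 5' end to the first coding base, introns included, was 31 bp, 12 bp and 15.0 bp in the same order. A span of 0 bp, where the annotation begins at the start codon, was found in 25 proximal genes (7.42%), against 10.6% of distant genes and 23.5% of all coding genes. The 95 proximal peaks at AG ends had a median signal of 65.7 and an E2F word in 16.8%. The 243 others had a median signal of 79.1 and an E2F word in 28.4%.

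Many proximal genes had a same-strand gene that ended shortly before their 5' end or reached past it. The coding gene reaching farthest towards the 5' end from upstream lay on the same strand, with a gap of up to 500 bp, in 145 of 337 proximal genes (43.0%, interval 37.8 to 48.4). The share was 24% of distant genes (20.8 to 27.4) and 20.6% of all coding genes. An overlap with the 5' end is a negative gap and is included, and overlaps were not counted apart. The median gap to the upstream coding gene was 578 bp, against 975 bp for distant genes and 937 bp for all coding genes. The shares with a same-strand neighbour at any gap were closer, 58.8%, 55.5% and 53.7%. The 146 proximal peaks with a same-strand gene at a gap of up to 500 bp, overlaps included, had a median signal of 68.4, an E2F word in 19.9% and an upstream summit in 70.5%. The 192 without had 85.5, 29.2% and 90.1%. Examples of close tandem neighbours are rpn-11, with a gap of 224 bp, and the FANCD2 gene fcd-2, with a gap of 195 bp.

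Both replicates held a summit for most proximal peaks, and somewhat over 50% ranked high in both. A summit within 200 bp was present in both full replicate lists for 320 of 338 (94.7%), against 94.2% of all nuclear peaks. Those lists hold 30000 and 26192 peaks, so presence in them is a weak criterion. Among the strongest 2712 of both replicates were 183 proximal peaks (54.1%, interval 48.8 to 59.4), against 60.2% of distant peaks, 70.7% of divergent peaks and 53.0% of all nuclear peaks. A further 47 were among the strongest of replicate 1 only, 85 of replicate 2 only and 23 of neither. Because the thresholded signal comes from the pooled replicates, the share is largely bound to fall with signal, and the fall is only a description. In 4 groups of 85, 84, 84 and 85 proximal peaks, from strongest to weakest, it was 95.3%, 76.2%, 38.1% and 7.06%. The signals of the weakest group ran from 42.0 to 56.2. In the 4 equal groups of all nuclear peaks, from strongest to weakest, the share was 92.8%, 67.5%, 28.6% and 3.39% of the proximal peaks, against 97.0%, 72.6%, 33.3% and 8.94% of all nuclear peaks. At like signal it was thus the lower of the pair in each group, although over all signals it was 54.1% against 53.0%. Below the strongest group, the proximal intervals (56.5 to 76.9, 20.3 to 38.6 and 0.935 to 11.5) spanned the share over all nuclear peaks. Distant peaks had 98.6%, 73.5%, 30.6% and 11.2% in the same groups, and divergent peaks 98.0%, 71.8%, 31.1% and 0%. The lower share was thus not particular to proximal peaks in every group.

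**Figure D3:**
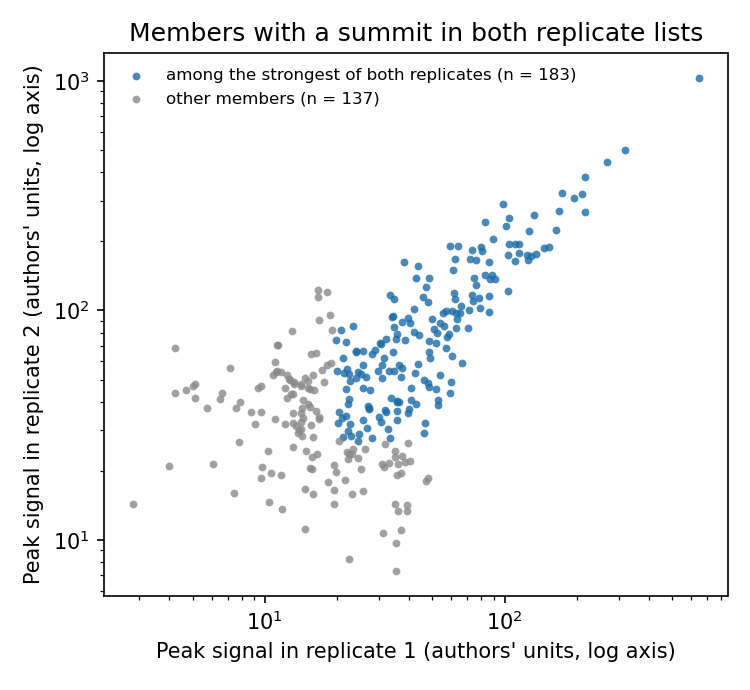
Peak signal of the 320 proximal peaks with a summit in both replicate lists, in replicate 1 (horizontal log axis) and replicate 2 (vertical log axis), in the authors' units; blue points are the 183 among the strongest 2712 of both replicates and grey points the other 137. The strong peaks fall along a diagonal that ends at tasp-1 (647 and 1033), and the weak peaks scatter widely.

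The position that defines these peaks held in most, but not all, replicate summits. The replicate 1 summit was a median of 16 bp from the thresholded summit and still met the rule in 284 of 327 peaks (86.9%). For replicate 2 the median was 8 bp and the count 304 of 331 (91.8%). Both replicate summits met the rule in 254 of the 338 (75.1%, interval 70.3 to 79.5), and the replicate summits were within 50 bp of each other in 240 of 320. The rank correlation of the replicates' signals across these 320 peaks was 0.60 (Spearman's rho), against 0.66, 0.69 and 0.52 for distant, divergent and all nuclear peaks. This is a description over peaks that share 2 libraries. Signal and distance were almost unrelated, with a rho of 0.03 across the 338 peaks. Some peaks differed widely between replicates. Chosen after their values were seen, F54D10.5 (signal 141) and sna-2 (138) had no summit in the replicate 2 list, and the autophagy gene atg-9 (92.4) had none in replicate 1.

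E2F words were several times as common at proximal summits as at coding 5' ends in general, and most proximal summits had a CHR element. Words were searched on both strands within 100 bp of the summit, in windows of 201 bp. The first form of the E2F word was TTCCCGC. Equally accepted were the form TTCGCGC, then the other form TTGCCGC and finally the form TTGGCGC. A CHR element was either the hexamer TTTGAA or the palindrome TTCGAA, which was counted once. No word contains another in full, but neighbouring words of 1 kind can overlap. A match describes the letters and is not evidence of a bound site.

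An E2F word was present in 85 of 338 proximal peaks (25.1%, interval 20.8 to 30), 24% of distant peaks, 26% of divergent peaks and 18.9% of all nuclear peaks. In windows centred 77 bp upstream of all 19973 coding 5' ends, the offset nearest to the proximal median, the share was 5.94%. With the letters reversed, which keeps their composition, proximal peaks had 11.8% and coding windows 3.52%. Reversed letters were thus also more common at proximal summits than in coding windows. They were at 13.8% of distant, 19.2% of divergent and 10.8% of all nuclear peaks. In the replicate lists the E2F word itself was at 25.7% and 26.1% of proximal peaks, 23.2% and 22.9% of distant peaks and 17.1% and 18.2% of all nuclear peaks. The proximal share moved by about 1 percentage point over the 3 lists, less than its distance from the share over all nuclear peaks.

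A CHR element was present in 203 proximal peaks (60.1%, interval 54.8 to 65.1), against 50.9% of distant peaks (47.0 to 54.7), 59.5% of divergent peaks, 47.5% of all nuclear peaks and 54.7% of coding windows. The replicate lists gave 64.2% and 57.4% for proximal peaks, and 54.4% and 51.6% for distant peaks. The lowest proximal value over the 3 lists thus stayed above the highest distant value. The reversed letters gave 24.3% at proximal peaks, 23.5% at distant peaks and 34.5% in coding windows. Both kinds of word were present in 57 proximal peaks (16.9%, against 11.7% of all nuclear peaks), and neither in 107 (31.7%, interval 26.9 to 36.8, against 41.1% of distant and 45.3% of all nuclear peaks).

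**Figure D4:**
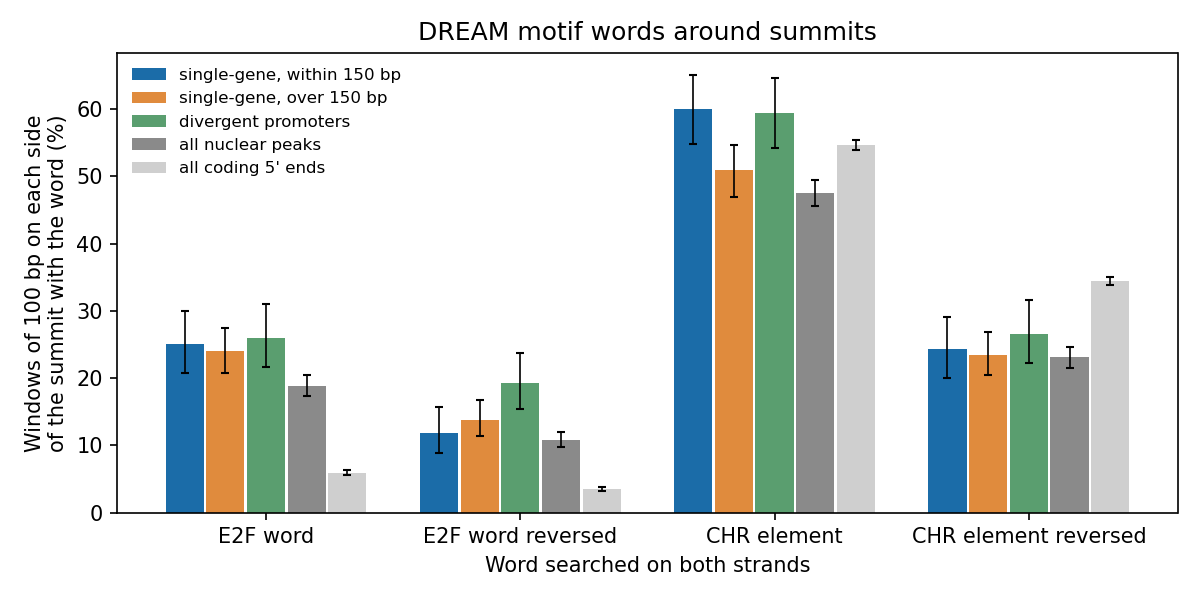
Share of windows with a word in percent (vertical axis; each window reaches 100 bp to either side of a summit), for the E2F word, the CHR element and the reversed letters of each (horizontal axis); bars are proximal, distant, divergent and all nuclear peaks and windows at all coding 5' ends, with 95% Wilson intervals for counting error. The E2F word is at 25.1% of proximal summits and 5.94% of coding windows, and the CHR element at 60.1% and 54.7%.

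Base composition moves with these shares. The median GC content of the window was 38.3% at proximal peaks, 40.3% at distant peaks, 39.3% at divergent peaks, 41.3% over all nuclear peaks and 33.8% in coding windows. In windows under 35% GC, 35 to 40%, 40 to 45% and over 45%, the CHR element was at 72.4%, 62.6%, 50.8% and 45.3% of proximal peaks. The same bands held it in 63.3%, 49.0%, 37.3% and 21.5% of coding windows, so windows centred on proximal summits were above coding windows in each band. Distant peaks were also above coding windows in each, with 66.9%, 58.9%, 50.7% and 32.8%. At like GC the share was thus closer between proximal and distant peaks, with almost the same value from 40 to 45%, than between proximal peaks and coding windows. The E2F word was at 23.5%, 27.8%, 31.1% and 17.2% of proximal peaks, and at 3.83%, 7.29%, 10.8% and 13.3% of coding windows. In the band of highest GC the interval of the proximal share (9.88 to 28.2%) spans the coding share.

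The share of proximal peaks with an E2F word followed signal, and the CHR share was highest in the strongest group. In the same 4 groups of proximal peaks from strongest to weakest, the E2F word was at 35.3%, 29.8%, 21.4% and 14.1%, and the CHR element at 77.6%, 63.1%, 47.6% and 51.8%. In the 4 equal groups of all nuclear peaks, the E2F word was at 27.1%, 22.7%, 13.9% and 11.8%. The CHR element was at 59.8%, 45.2%, 40.7% and 44.3% there. The pattern was thus not particular to proximal peaks. Other promoter words were less common. The GAGA repeat GAGAGAGA was at 21 proximal peaks (6.21%, against 8.91% of all nuclear peaks), the E-box CACGTG at 17 (5.03%, against 6.04%) and the TATA letters TATAAA at 59 (17.5%, against 15.1%). GAGAGAGA was at 5.44% of distant and 2.66% of divergent peaks. Coding windows had GAGAGAGA in 2.60%, CACGTG in 4.24% and TATAAA in 29.5%. The reversed letters of TATAAA were at 34.6% of proximal peaks and 42.4% of coding windows.

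The words had different places around the summit. The 85 peaks held 100 E2F words, of which 36 were TTGGCGC, 27 TTCGCGC, 21 TTCCCGC and 16 TTGCCGC. Their centres lay within 25 bp of the summit in 42 cases and within 50 bp in 85, and the nearest word was a median of 29 bp away. The step from 40 to 20 bp upstream of the summit alone held 30. From 20 to 60 bp away there were 39 words upstream of the summit and 20 downstream, but 25 and 23 with replicate 1 summits, and 31 and 27 with replicate 2 summits. The excess on the upstream side was therefore smaller with the summits of either library. Upstream of the 5' end lay 88 of the 100 words. The 203 peaks with a CHR element held 303 of them, 236 TTTGAA and 67 TTCGAA, of which 56 lay within 25 bp of the summit and 172 within 50 bp.

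CHR elements were sparse at the summit itself and denser on its flanks. Per 100 proximal peaks and 10 bp there were 2.96 elements within 19 bp of the summit and 6.03 from 20 to 60 bp. With replicate 1 summits these densities were 2.82 and 6.34, and with replicate 2 summits 3.72 and 5.53. The dip therefore appeared with the summits of each library. In the 169 stronger proximal peaks the values were 3.19 and 8.59, and in the 169 weaker ones 2.73 and 3.46. Distant peaks had 2.91 and 4.48, divergent peaks 2.81 and 4.83, and coding windows 4.17 and 4.39. For the E2F word the densities at proximal peaks were 2.20 and 2.13, without such a dip.

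**Figure D5:**
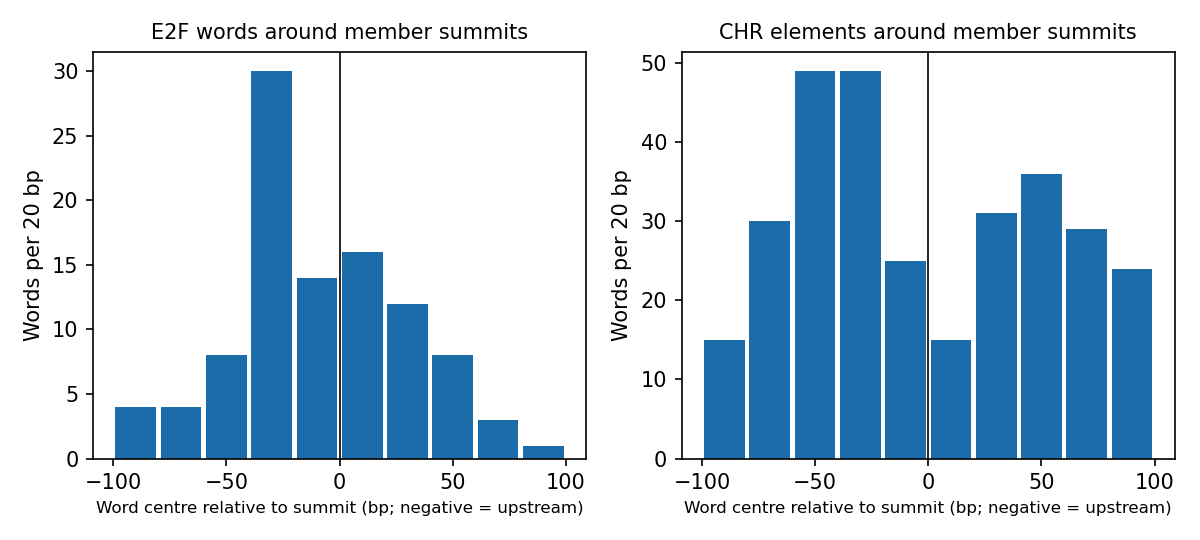
Number of E2F words (left, 100 words) and CHR elements (right, 303 elements) per 20 bp (vertical axes) by the distance of the word centre from the summit of proximal peaks in bp (horizontal axes, negative is upstream on the strand of the gene). The E2F words have their highest step, 30 words, from 40 to 20 bp upstream, and the CHR elements have 49 in each of the steps from 60 to 20 bp upstream and 15 just past the summit.

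Where both words occurred, they were near each other. In the 57 proximal peaks with both, the closest pair had a median of 9 bases between the words, against 11 bases in 102 distant peaks, 11 bases in 63 divergent peaks and 32 bases in 629 coding windows. The letters of an E2F word and a CHR element do not allow the words to overlap. Read along the E2F word, the CHR element was on its 5' side in 34 of 57 (59.6%, interval 46.7 to 71.4), against 57.8% of distant peaks, 65.1% of divergent peaks and 56.6% of coding windows. A gap of 0 to 2 bases on that side, as in ufd-3 and in the spindle positioning gene lin-5 above, was found in 12 proximal peaks (21.1%), against 23.5% of distant peaks, 14.3% of divergent peaks and 9.70% of coding windows. It was found in 24.7% of the 85 nuclear peaks with both words and no coding 5' end within 500 bp, so it was not particular to promoters. On the 3' side that gap was found in 1 proximal peak (1.75%). A gap of 7 to 10 bases on the 5' side, as in rpn-11 and mes-2, was found in 10 proximal peaks (17.5%), against 10.8% of distant peaks, 19% of divergent peaks and 8.74% of coding windows. Nuclear peaks with no coding 5' end within 500 bp had it in 7.06%. Of these 10 peaks, 8 had exactly 9 bases, as had 10 distant peaks, 3 divergent peaks and 19 coding windows. These gap classes were set after the spacings were seen, and the counts are small.

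Of the 19973 coding genes, 337 (1.69%) had a proximal peak, and the shares of named gene groups are set beside that. The rule mostly admits genes with no other coding 5' end within 500 bp of their own. Such genes were 88.8% of all coding genes, but 40 of 61 cell cycle and mitosis genes and 59 of 81 cytosolic ribosomal protein genes. The list shares are not adjusted for this. DREAM itself was represented by 1 of 8 listed genes, lin-52, whose product is a DREAM core subunit. Its peak was weak, with a signal of 65.7 in the thresholded list, 26.8 in replicate 1 and 30.7 in replicate 2. The summit lay 88 bp downstream, in a coding exon, and the replicate summits were 7 and 140 bp downstream.

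DNA replication had the highest share among lists of over 10 genes, with 8 of 41 genes (19.5%, interval 10.2 to 34.0). Most of these peaks were of middling or low signal, with a median of 66.4. The strongest was at pole-1, the catalytic subunit of DNA polymerase epsilon, with 155 in the thresholded list, 55.4 in replicate 1 and 97.5 in replicate 2. At orc-3 of the origin recognition complex the values were 96.7, 11.4 and 71.0, and replicate 1 did not rank it among its strongest 2712. At the GINS subunit gene psf-3 they were 77.4, 36.1 and 39.7. The other replication genes were sld-2, the licensing factor gene cdt-1, the polymerase alpha subunit gene div-1, the clamp loader gene rfc-1 and the geminin gene gmn-1, with signals from 51.4 to 66.8. Of the 41 genes, 23 had a summit of any kind within 500 bp, against 1719 of all 19973 coding genes.

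Listed repair and mitosis genes were fewer. DNA repair had 4 of 42 genes (9.52%, interval 3.77 to 22.1), with a median signal of 165. The BRCA1 gene brc-1 had 233 in the thresholded list, 59.0 in replicate 1 and 190 in replicate 2, and the crosslink nuclease gene fan-1 had 191, 43.5 and 156. The exonuclease gene exo-1 had 138, 41.9 and 80.4, and fcd-2 had 108, 48.3 and 65.7. At fan-1 and exo-1 the summits lay 121 and 135 bp downstream, in the 5' UTR. Cell cycle and mitosis had 3 of 61 genes (4.92%). That list is not complete. It leaves out szy-20, lin-5 (signal 109) and the kinetochore gene kbp-3 (75.1), which have proximal peaks. The centriole assembly gene sas-5 had 139, 58.6 and 78.6, whereas the centromere gene knl-2 (55.4, 21.5 and 18.3) and cdk-2 (43.1, 7.82 and 26.7) were weak in every list.

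Chromatin genes included 3 of 34 histone modifiers (8.82%, interval 3.05 to 23). Of these, mes-2 and mes-6 encode subunits of the worm Polycomb complex. The methyltransferase gene mes-2 had 264 in the thresholded list, 73.3 in replicate 1 and 184 in replicate 2, and mes-6 had 113, 59.7 and 48.7. The H3K36 methyltransferase gene met-1 had 45.9, 26.1 and 25. Of 58 histone genes only his-37, an H4 gene, qualified, with 302, 104 and 195. Only 17 of the 58 have no other coding 5' end within 500 bp of their own, so the rule limits this count. Histone genes have near-identical copies, and how the authors placed reads that match several is not given in the sources used here.

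Genes for making and folding proteins were represented through few members each. Mitochondrial ribosomal proteins had 5 of 70 (7.14%, interval 3.09 to 15.7). Among them were mrpl-47 (285, 103 and 174), mrpl-55 (217, 74.5 and 139) and mrpl-28 (190, 73.3 and 117). Cytosolic ribosomal proteins had 1 of 81, rpl-24.2 (1.23%, 0.218 to 6.67), although 62 of the 81 had a summit within 500 bp. Of those, 26 were at distant and 35 at divergent peaks. Over all coding genes, 1719 of 19973 had a summit within 500 bp. Translation factors had 3 of 40, iff-2, eif-2Bdelta and eif-2gamma, and the proteasome 2 of 33, rpn-11 and the ATPase gene rpt-1. Chaperones had 4 of 63 (6.35%), pfd-6, the BiP gene hsp-3 and the J-domain co-chaperone genes dnj-10 and dnj-23. Aminoacyl-tRNA synthetases had 2 of 31, the valyl-tRNA synthetase gene vars-1 (signal 118) and sars-2. Nuclear pore and transport genes had 1 of 40, the nucleoporin gene npp-20 (90.1, 16.4 and 65.5). That list leaves out the mRNA export genes nxt-1 (signal 80.9) and rae-1 (73.5), which have proximal peaks.

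Germline lists had 1 proximal gene or none. Oocyte and germline RNA regulators had 1 of 38 (2.63%), the ataxin-2 gene atx-2 (127, 66.7 and 58.8), and meiosis genes 1 of 33 (3.03%), him-17 (47.7, 13.1 and 43.1), a chromatin gene needed for meiotic recombination. P granule and small RNA genes had 0 of 45, which allows a share of up to 6.67%, and sperm genes 0 of 60 (up to 5%). The first of these lists is not complete. It leaves out the small RNA pathway genes pid-3 (signal 55.8) and pash-1 (246), which have proximal peaks. The limits of both lists lie above the 1.69% over all coding genes, so these counts are not distinguishable from it. The same holds for the splicing factor list, with 0 of 38 (up to 7.89%). That list is not complete. It leaves out smu-1, and also ddx-23 (signal 80.8), yju-2 (76.3), lsm-6 (51.2) and teg-4 (44.0), splicing genes that have proximal peaks. Its limit is therefore for the listed genes only.

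Some large families of tissue-specific genes had limits below 1.69%. These were chemoreceptors with 0 of 1301 (up to 0.231%) and nuclear hormone receptors with 0 of 269 (up to 1.12%). Neuropeptides had 0 of 140 (up to 2.14%) and homeobox genes 0 of 81 (up to 3.70%), and muscle, neuronal and intestinal lists had 0 of 27, 0 of 30 and 0 of 25, with limits of 11.1%, 10% and 12%. The limits of these 5 lists lie above 1.69%. In the cuticle list 1 of 194 qualified, dpy-11, which entered through its name and encodes a thioredoxin-like protein, not a collagen. All 26 lists together held 41 of the 337 proximal genes (12.2%).

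Proximal peaks were unevenly spread over the chromosomes. Chromosome III had them at 88 of 2640 coding genes (3.33%, interval 2.71 to 4.09) and chromosome I at 74 of 2878 (2.57%, 2.05 to 3.22). The share was 1.71% on II, 1.52% on IV, 0.921% on V and 0.732% on X (20 of 2731, 0.475 to 1.13), against 1.84% over the autosomes (1.65 to 2.05). Of nuclear peaks on X, 5.31% were proximal, against 13.8% on the autosomes. The 20 peaks on X had a median signal of 64.1 and a CHR element in 7 (35%, 18.1 to 56.7). The 318 autosomal peaks had 76.4 and a CHR element in 196 (61.6%, 56.2 to 66.8). The strongest on X was at hsp-3, with 158 in the thresholded list, 45.6 in replicate 1 and 114 in replicate 2.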

How the data were processed

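LIN-35 ChIP-seq peaks of 2 biological replicates of 1 group were analysed. Per the deposited text indexes, the authors made a relaxed peak list for each replicate (30000 and 26192 peaks) and for both pooled (30000), each against a control, and then thresholded the peaks by irreproducible discovery rate. The thresholded list holds exactly the 2712 strongest pooled peaks. The software that aligned reads and called peaks is not given in the sources used here. The deposited signal of a peak has no stated scale. The deposited −log10 q-value is 3.78 for every thresholded peak and was not used for ranking. The ce11 lists were used, and the ce10 lists were not used here.

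Summits were assigned to the 5' ends of protein-coding genes of Ensembl release 115 (WBcel235), 1 end per gene. A peak was matched to a replicate summit within 200 bp. Words were searched in windows of 201 bp of the RefSeq WBcel235 genome. Shares have 95% Wilson intervals, and a count of 0 is given the limit of 3 counts, both for counting error only. Depth per sample is unknown. Python 3.11.15, pandas 2.3.3, NumPy 2.4.6, SciPy 1.17.1 and matplotlib 3.10.9 were used, and the assignment and the word search were tested on simulated data.

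Named genes were those of the 20 strongest proximal peaks with a summit in both replicate lists, up to 3 of highest signal per gene list with all of the DREAM list, 3 on each side of the 150 bp limit and the 3 nearest to a 5' end. Others were chosen after their values were seen. The members, the 26 gene lists, the words and these rules were chosen with earlier results of these data known. Of the listed symbols, 9 matched no gene and were left out. Alternatives changed the threshold, the list, the distances, the kind of 5' end and the windows.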

Additional observations from a re-analysis of the deposited data

How the results depend on the processing

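Of 80 values recomputed under 15 alternative settings, 63 stayed within 1.5 times the count or within the counting interval of the reported value. With the 1356 strongest peaks only, 188 proximal peaks remained, of which 89.4% were upstream, 82.4% among the strongest of both replicates, 33.5% had an E2F word and 68.6% a CHR element, with a median signal of 124. With a single replicate list in place of the thresholded list, the count was 327 to 329, the upstream share 75.5 to 79.0%, the share among the strongest of the other replicate 56.8 to 63.6%, the E2F share 25.7 to 26.1% and the CHR share 57.4 to 64.2%. The median signal there was 33.9 in the replicate 1 list and 49.8 in the replicate 2 list, on scales that are not stated to be shared with the thresholded list. A limit of 100 bp gave 178 peaks, 77.0% upstream, at a median distance of 54.5 bp, and a limit of 200 bp a median of 124 bp. Replicate lists limited to 1356 peaks gave 35.8% in both, and windows of 50 bp on each side a CHR share of 37.6%. Of 2 alternatives added after seeing the data, members without a noncoding 5' end nearby changed none of these values beyond those limits. Members whose replicate summits both meet the rule had 61.0% among the strongest of both, a median signal of 83.8 and a median distance of 78.5 bp. Differences between kinds of peak within the 2 libraries were not tested. Unknown depth limits every weak peak.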
